A study of Homo sapiens with 2 samples.

Results

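Genes of the spliceosome and of the main splicing regulators were compared between HCT116 cells treated with 10 nM SB590885, an inhibitor of RAF kinases, and HCT116 cells given vehicle. They were taken as the genes whose platform symbol begins SRSF or SFRS, HNRNP, SNRP, SF3A, SF3B, U2AF or PRPF, with 4 pseudogene symbols left out. Of 71 such genes with a named probe, 67 were detected (detection p under 0.01 on at least 1 array), among 10430 detected genes of 20045 in all. HCT116 is a human colorectal carcinoma line, labelled p53+/+ for both conditions. Each condition was measured on 1 Illumina bead array; without replicates, the ratios carry no error between cultures and no p-value. The length of treatment is not given in the sources used here.

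Splicing removes introns from pre-mRNA on the spliceosome, which is assembled from small nuclear ribonucleoproteins (snRNPs) and many other proteins. SR proteins bind exons and favour their inclusion, whereas many hnRNP proteins oppose it, so the balance between them sets many alternative splicing choices. SR proteins act downstream of kinases that phosphorylate their arginine-serine domains, and several SR and hnRNP genes are known targets of MYC.

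The splicing factor genes were slightly lower with SB590885. Their median log2 ratio of intensity, SB590885 over vehicle, was -0.11, against 0 over all detected genes, and 41 of 67 were lower (61.2%), where 50.1% of all detected genes were. The other 26 were higher, where 49.8% of all detected genes were. No gene reached 1.5-fold in either direction, where 1.51% of all detected genes were higher and 1.16% lower by that size. At 2-fold the shares of all detected genes were 0.249% higher and 0.134% lower. A smaller size, 25% or more higher or its inverse, 20% or more lower, was passed by 1 gene upward and 7 downward, where 7.12% and 6.99% of all detected genes passed it. The ratios ran from -0.54 for HNRNPH3 to 0.56 for PRPF19, and their SD over genes was 0.214, against 0.244 for all detected genes. The next highest, HNRNPA1, was at 0.32 by its brightest probe and at -0.87 by its other probe. In RNA from a whole culture, fewer cells that express a gene and less of its RNA per cell cannot be told apart.

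**Figure D1:**
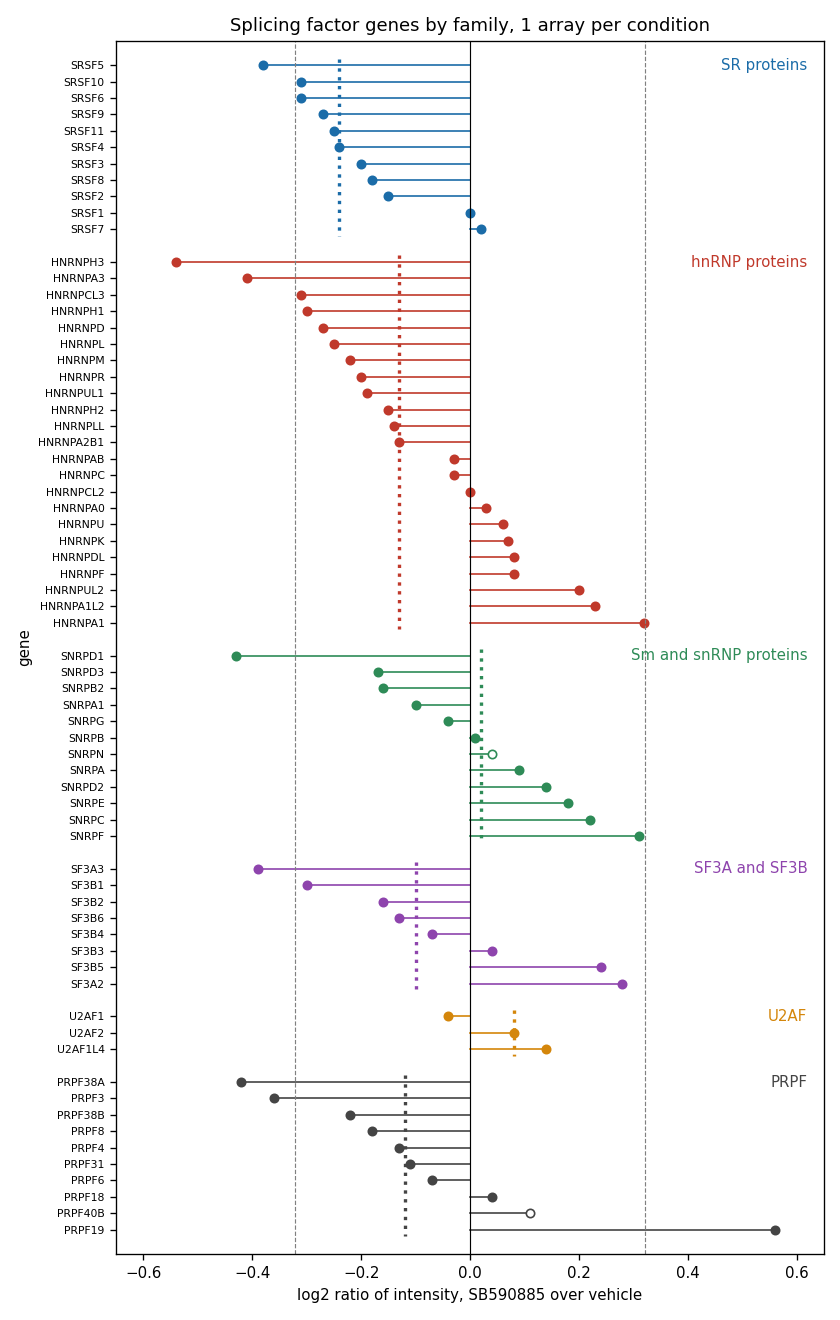
Each row is 1 gene and each point its log2 ratio of intensity, SB590885 over vehicle; open points were detected on 1 array only, dotted lines mark family medians and dashed lines 25% higher and 20% lower. The SR proteins lie mostly to the left of 0 (median -0.24), the Sm and snRNP proteins on both sides (median 0.02), and PRPF19 (0.56) stands farthest to the right.

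Detection was similar on both arrays, with 16694 of 47318 probes (35.3%) for SB590885 and 15944 (33.7%) for vehicle. Epithelial markers were detected for 8 of 10 genes, and the detected ones summed to intensities of 14402.6 with SB590885 and 13140.8 with vehicle. Of these, EPCAM was highest (6439.4 with SB590885 against 4420.2 with vehicle), and its rise was larger than that of the sum. By the brightest probe over both arrays, 5 of the 8 were lower, where 50.1% of all detected genes were. They included KRT8 (log2 ratio -0.22) and KRT19 (-0.12), and the other 3 were higher. Of the intestinal genes, CDX2 was detected (236.4 with SB590885, 253.7 with vehicle), and VIL1 and CDX1 were not. Leukocyte markers were detected for 2 of 8 genes, which summed to 416.6 with SB590885 and 409.7 with vehicle, background included, and PTPRC and CD3E were not among them. Stromal and endothelial markers were detected for 3 of 10 genes, which summed to 412.1 with SB590885 and 413.4 with vehicle, background included, and PECAM1 and VWF were not among them. Their part in the splicing gene values was not tested.

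**Figure D2:**
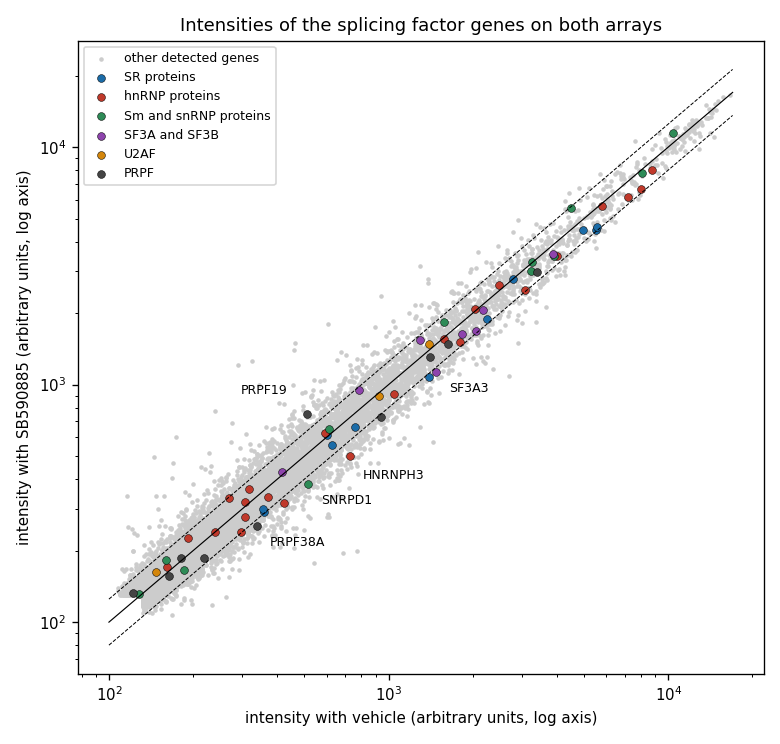
Intensity with SB590885 (vertical) against intensity with vehicle (horizontal), both on log axes, for all detected genes (grey) and for the splicing factor genes by family; the solid line marks equality and the dashed lines 25% higher and 20% lower. PRPF19 (752.8 with SB590885, 511.2 with vehicle) lies above the upper dashed line, and the 7 genes below the lower one include HNRNPH3 and SNRPD1.

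Promoters of 6 genes are shown, so that the motifs counted over all members can be seen in place. RefSeq's table (GRCh38.p14) matched 61 of the 67 genes. Each line gives the 250 bases before the start site, 5′ to 3′ on the gene's strand. HNRNPH3 and HNRNPA3 had the 2 lowest hnRNP ratios by their brightest probes, SRSF5 and SF3A3 were the lowest of their families, and PRPF19 was the highest gene of all. HNRNPD, with a smaller ratio, was picked for its motifs, since it has both an E-box and an ETS core. Capitals mark E-boxes (CACGTG), ETS cores (CCGGAAG, or CTTCCGG on the other strand) and CCAAT boxes (CCAAT, or ATTGG on the other strand).
HNRNPH3, chr10:68331443-68331692, plus strand: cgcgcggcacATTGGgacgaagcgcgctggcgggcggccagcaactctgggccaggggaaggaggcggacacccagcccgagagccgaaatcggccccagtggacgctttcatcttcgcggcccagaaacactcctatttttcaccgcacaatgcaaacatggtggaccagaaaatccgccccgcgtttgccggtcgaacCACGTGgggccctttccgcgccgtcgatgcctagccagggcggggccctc
HNRNPA3, chr2:177212544-177212793, plus strand: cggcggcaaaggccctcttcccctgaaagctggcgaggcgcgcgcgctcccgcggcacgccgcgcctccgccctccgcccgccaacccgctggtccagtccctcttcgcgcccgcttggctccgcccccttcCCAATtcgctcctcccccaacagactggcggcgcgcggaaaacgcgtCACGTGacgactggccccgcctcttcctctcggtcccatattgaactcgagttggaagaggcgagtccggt
HNRNPD, chr4:82373992-82374241, minus strand: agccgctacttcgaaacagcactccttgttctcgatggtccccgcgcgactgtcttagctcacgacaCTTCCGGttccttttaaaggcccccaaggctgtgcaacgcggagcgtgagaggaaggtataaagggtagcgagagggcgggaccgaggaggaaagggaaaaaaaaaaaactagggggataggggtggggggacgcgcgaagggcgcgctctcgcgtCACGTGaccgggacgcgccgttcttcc
SRSF5, chr14:69766892-69767141, plus strand: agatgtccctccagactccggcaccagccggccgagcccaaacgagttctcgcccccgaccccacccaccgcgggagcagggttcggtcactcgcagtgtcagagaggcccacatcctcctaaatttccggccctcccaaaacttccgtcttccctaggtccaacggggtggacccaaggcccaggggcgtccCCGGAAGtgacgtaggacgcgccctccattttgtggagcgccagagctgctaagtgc
SF3A3, chr1:37990023-37990272, minus strand: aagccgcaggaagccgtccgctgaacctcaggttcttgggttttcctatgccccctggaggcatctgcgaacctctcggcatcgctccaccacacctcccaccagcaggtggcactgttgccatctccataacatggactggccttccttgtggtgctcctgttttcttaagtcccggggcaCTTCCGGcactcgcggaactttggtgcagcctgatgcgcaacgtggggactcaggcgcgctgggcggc
PRPF19, chr11:60906586-60906835, minus strand: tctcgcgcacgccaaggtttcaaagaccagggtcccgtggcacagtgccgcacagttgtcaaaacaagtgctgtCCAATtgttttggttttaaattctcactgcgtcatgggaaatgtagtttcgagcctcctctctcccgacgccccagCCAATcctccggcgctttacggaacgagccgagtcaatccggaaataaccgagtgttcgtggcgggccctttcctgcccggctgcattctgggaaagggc

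In these windows the E-box, a site bound by MYC and related factors, was found in 7 of 61 promoters (11.5%), against 9.16% of 8426 detected genes with a promoter entry. It was present in 6 of 21 hnRNP promoters (28.6%), those of HNRNPH3, HNRNPA3, HNRNPD, HNRNPM, HNRNPH2 and HNRNPDL, and in that of SF3B1. None of the 10 SR protein promoters held it. By their brightest probes, the 7 genes with an E-box had a median log2 ratio of -0.27 and 6 were lower. The 54 without had a median of -0.06 and 31 were lower. HNRNPM and HNRNPH2, both counted as lower, also had dimmer probes at 0.15 and 0.21. HNRNPDL, counted as higher, had a dimmer probe at -0.32. Over all detected genes the medians were -0.01 with an E-box and 0 without. The motif was singled out after the values were seen, and a match of letters is not a binding site.

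The other motifs searched, each on both strands, divided the genes less. The ETS core, the centre of sites for ETS factors, was found in 20 promoters (32.8%, against 17.1% of detected genes), and the median log2 ratio was -0.07 with it and -0.13 without. Of the 20 genes with the core 12 were lower, and of the 41 without it 25 were. CCAAT boxes were found in 44.3% of splicing promoters and 36.0% of detected genes, with a median of -0.10 for members with and without them. GC boxes (GGGCGG, not capitalised) were found in 57.4% and 68.5%, with a median of -0.03 with them and -0.16 without. The cyclic AMP response element (TGACGTCA) and the palindromic site of NRF1 were in none of the 61 promoters, against 3.13% and 2.11% of detected genes. No match overlapped one of another motif in these 61 promoters, and copies of 1 motif overlapped in HNRNPU, SNRPC and U2AF2. Of all 35116 promoters in the table, 6.34% held an E-box, 8.52% an ETS core, 32.0% a CCAAT box, 42.6% a GC box, 1.65% the cyclic AMP element and 1.03% the NRF1 site.

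**Figure D3:**
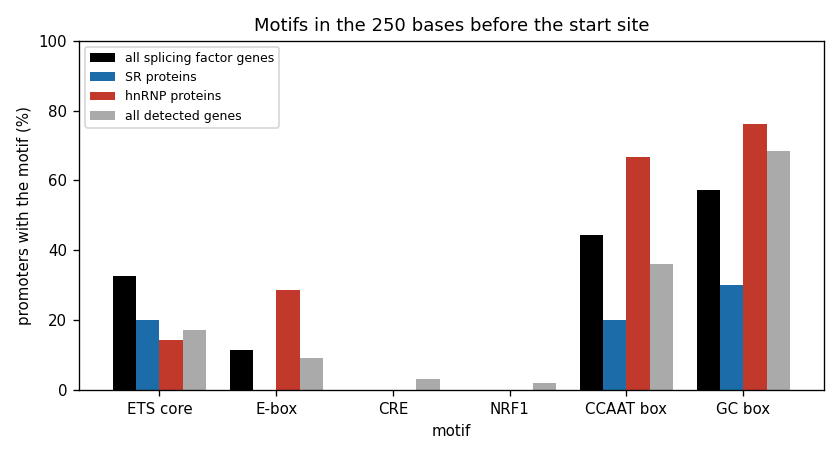
Share of promoters (%) with each motif in the 250 bases before the start site, for all 61 splicing factor genes with an entry, the 10 SR proteins, the 21 hnRNP proteins and the 8426 detected genes with an entry. The E-box bar of the hnRNP proteins (28.6%) is above that of all detected genes (9.16%), and the SR proteins have none.

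SR proteins, which recognise exonic enhancers through RNA-recognition motifs, were the family with the lowest median. Of 11 detected SR genes 9 were lower, and the median log2 ratio was -0.24, which is 1.18-fold lower. SRSF5, a regulator of alternative exons, had an intensity of 1073.6 with SB590885 and 1399.9 with vehicle, a log2 ratio of -0.38. It was the only SR gene 20% or more lower, and its second probe had the same sign (785.8 with SB590885, 928.8 with vehicle). SRSF6, which acts on both constitutive and alternative exons, had 4461.8 with SB590885 and 5527.8 with vehicle (-0.31). SRSF10, an SR protein that acts as a repressor when dephosphorylated, had 290.5 with SB590885 and 359.0 with vehicle (-0.31), and its second probe gave -0.32. These 3 were the lowest of the family.

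The rest of the SR family was lower by less or level. SRSF9, SRSF11 and SRSF4 had log2 ratios of -0.27, -0.25 and -0.24, and SRSF3, SRSF8 and SRSF2 had -0.20, -0.18 and -0.15. SRSF2 (4473.8 with SB590885, 4970.0 with vehicle) encodes the factor long used as a marker of nuclear speckles. SRSF3 had a second, dimmer probe at 0.02. The 3 highest were SRSF2, SRSF1 and SRSF7. SRSF1, the prototype SR protein and an oncogenic splicing factor, was level at 2785.2 with SB590885 and 2781.6 with vehicle, and SRSF7, an SR protein with a zinc knuckle, had 614.6 with SB590885 and 604.3 with vehicle (0.02). SRSF12 was not detected on either array (114.3 with SB590885, 107.6 with vehicle). SRSF8 arose as a copy of SRSF2, and its probe may share signal with that gene.

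hnRNP proteins, which coat nascent transcripts and often silence exons, were spread more widely. Of 23 detected genes 14 were lower, with a median log2 ratio of -0.13. Brightest probes ran from -0.54 for HNRNPH3 to 0.32 for HNRNPA1, whose other probe was at -0.87. HNRNPH3, a member of the G-tract-binding H/F group, had 500.8 with SB590885 and 727.1 with vehicle, 1.45-fold lower. Its second probe gave 431.6 with SB590885 and 606.7 with vehicle (-0.49), so both probes showed the same size. HNRNPA3, an A/B-type protein, had 316.3 with SB590885 and 421.3 with vehicle (-0.41). The third lowest was HNRNPCL3 (239.1 with SB590885, 295.6 with vehicle; -0.31), a close copy of HNRNPC whose probe may also bind other copies. HNRNPH1, the closest relative of HNRNPH2, was lower on all 3 of its probes, at -0.52, -0.30 and -0.07. HNRNPD, also called AUF1, a regulator of mRNA decay, gave -0.27 and -0.26 on its 2 probes.

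At the other end, HNRNPUL2 had 363.9 with SB590885 and 317.6 with vehicle (0.20), and HNRNPA1L2, a retrogene copy of HNRNPA1 on chromosome 13, had 225.4 with SB590885 and 192.1 with vehicle (0.23). HNRNPA1, the prototype exon silencer, was highest in the family by its brightest probe, at 334.5 with SB590885 and 268.8 with vehicle (0.32). Its other probe showed the opposite, at 215.4 with SB590885 and 392.7 with vehicle, 1.82-fold lower. Both probes carry the same RefSeq transcript in the platform annotation, so the array gives no single direction for HNRNPA1. Probes annotated to the pseudogenes HNRNPA1P10 and HNRNPA1P33 were higher with SB590885 (1813.3 with SB590885 against 1634.5 with vehicle, and 1821.7 against 1597.7), and HNRNPA3P1 had a log2 ratio of -0.16. These pseudogenes are near-identical to their parent genes, and which transcripts their probes report was not tested. HNRNPCL1 was not detected, its probe nearest the limit giving detection p-values of 0.0273 with SB590885 and 0.0169 with vehicle.

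Sm proteins form the ring around most spliceosomal snRNAs, and with the U1 and U2 snRNP proteins of the same symbol prefix they were split. Of 12 detected genes 5 were lower and 7 higher, and the median log2 ratio was 0.02. SNRPD1, an Sm core protein, was lowest, at 382.6 with SB590885 and 514.9 with vehicle (-0.43). SNRPD3, of the same ring, followed at 165.3 with SB590885 and 185.6 with vehicle (-0.17), and SNRPB2, a U2 snRNP protein, at 3497.3 with SB590885 and 3899.4 with vehicle (-0.16). Of the 12, SNRPD1 alone was 20% or more lower.

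Among the highest of these, SNRPF, an Sm core protein, had 5539.9 with SB590885 and 4483.2 with vehicle (0.31). Its second probe pointed the other way at 4252.2 with SB590885 and 5357.1 with vehicle (-0.33). SNRPF therefore has no settled direction. SNRPC, the U1 protein that stabilises pairing at the splice donor, had 1841.8 with SB590885 and 1581.0 with vehicle (0.22), with a second probe at 0.05. SNRPE had 181.8 with SB590885 and 160.5 with vehicle (0.18). The remaining genes of the prefix, SNRPA1, SNRPG, SNRPB, SNRPA and SNRPD2, had log2 ratios between -0.10 and 0.14. SNRPN, the close relative of SNRPB, was detected with SB590885 only (131.7, detection p 0.0065) and not with vehicle (128.2, 0.0169), just across the limit. The 7 genes with SNRNP symbols, which fall outside the prefix and were added after the values were seen, had a median of -0.02, from SNRNP40 at -0.22 to SNRNP27 at 0.17.

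SF3A and SF3B subunits, which carry the U2 snRNP to the branch site, had 5 of 8 detected genes lower and a median log2 ratio of -0.10. SF3A3 was the lowest, at 1130.1 with SB590885 and 1481.2 with vehicle (-0.39). SF3B1, the branch-site subunit that is recurrently mutated in leukaemias, had 1675.8 with SB590885 and 2063.0 with vehicle (-0.30), and its second probe gave -0.51. SF3B2 was next at 1638.3 with SB590885 and 1831.6 with vehicle (-0.16). Subunits of the same complexes were higher: SF3A2 had 952.7 with SB590885 and 784.6 with vehicle (0.28), SF3B5 had 1535.8 with SB590885 and 1297.4 with vehicle (0.24), and SF3B3 had 429.7 with SB590885 and 417.1 with vehicle (0.04). SF3A1 was not detected (124.7 with SB590885, 113.0 with vehicle). Subunits that act together in the cell thus had ratios of both signs.

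U2AF binds the end of the intron and recruits the U2 snRNP, and its genes were close to level. U2AF1, the small subunit that reads the AG at the acceptor site, had 897.4 with SB590885 and 922.5 with vehicle (-0.04), and U2AF2, the large subunit that binds the polypyrimidine tract, had 1482.2 with SB590885 and 1397.4 with vehicle (0.08). U2AF1L4, a U2AF1-related gene, had 162.6 with SB590885 and 147.8 with vehicle (0.14), with a dimmer probe at -0.14. No member of this group was 25% or more higher or 20% or more lower.

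PRPF genes, named for pre-mRNA processing factors first defined in yeast, held both the highest gene of all and 2 of the 7 that were 20% or more lower. PRPF19, the ubiquitin ligase at the core of the Prp19 complex that remodels the spliceosome for catalysis, had 752.8 with SB590885 and 511.2 with vehicle, 1.47-fold higher. It had 1 detected probe, so no other probe checks it. PRPF38A, which joins the spliceosome before its activation, had 253.1 with SB590885 and 337.9 with vehicle (-0.42), and its second probe gave -0.16. PRPF3, a protein of the U4/U6 snRNP, had 733.8 with SB590885 and 938.6 with vehicle (-0.36). PRPF38B, related to PRPF38A, had 186.7 with SB590885 and 217.9 with vehicle (-0.22).

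Proteins of the same tri-snRNP were lower by smaller amounts. PRPF8, the large protein that cradles the catalytic RNAs, had a log2 ratio of -0.18, PRPF4 had -0.13, PRPF31 had -0.11 and PRPF6 had -0.07. PRPF18, a second-step factor, had 186.9 with SB590885 and 181.3 with vehicle (0.04). PRPF40B, a U1-associated protein, was detected with SB590885 only (132.3, detection p 0.0065) and gave 122.2 with vehicle. PRPF39 lay just outside the limit, at 124.6 with SB590885 and 130.0 with vehicle, with a lowest detection p of 0.0156. Over the PRPF genes 7 of 10 were lower and the median was -0.12.

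Different probes of 1 gene are the only repeated measurement on these arrays, and they share the array and the RNA. Of 28 splicing genes with several detected probes, 15 (53.6%) had all probes of the same sign, where 60.4% of such genes had over the whole array. The number of probes per gene, on which such agreement depends, was not matched between these sets. In 12 of the 15 (80.0%) all probes were lower, where 56.8% of the same-sign genes over the whole array were. Among the 12 were SRSF5, SRSF10, HNRNPH3, HNRNPH1, HNRNPD, SF3B1 and PRPF38A. In 3 all probes were higher (SNRPB, SNRPC and U2AF2). Of 14 hnRNP genes with several probes, 9 had probes of both signs, some of them close to level, such as HNRNPAB at -0.03 and -0.02. HNRNPC gave -0.03 on its brightest probe and -0.52 on the other, and HNRNPA2B1 ranged from -0.27 to 0.26 over 4 probes. The ratios of a gene's 2 brightest probes differed with an SD of 0.334 over these 28 genes, against 0.247 over all genes with several probes. HNRNPA1, at 0.32 and -0.87, had the widest gap and weighs heavily in that SD. The median absolute difference was 0.196, against 0.146 over all genes with several probes.

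**Figure D4:**
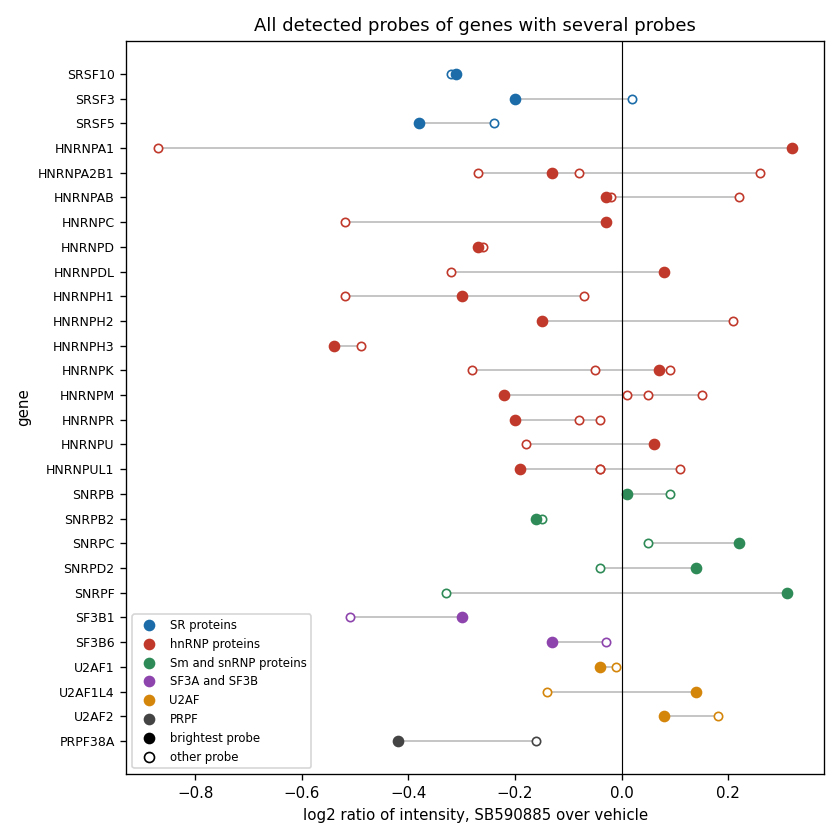
Each row is 1 of the 28 genes with several detected probes; points are the log2 ratios of its probes, SB590885 over vehicle, filled for the brightest probe and open for the others. HNRNPA1 spans -0.87 to 0.32 and SNRPF -0.33 to 0.31, while HNRNPH3 and HNRNPD lie together on the left.

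Other genes of the splicing pathway, in 10 lists, were also mostly lower. Of 129 detected genes in these lists 84 were lower (65.1%), where 50.1% of all detected genes were. Their median log2 ratio was -0.07, against 0 over all detected genes. By 1.5-fold 3 were lower and none higher, where 1.16% and 1.51% of all detected genes were. With background correction, over the 127 genes detected on both arrays, 10 were lower and 1 higher by that size, where 4.63% and 5.09% of all genes so detected were. RBM17, a U2-related splicing factor, had 412.9 with SB590885 and 670.4 with vehicle, 1.62-fold lower. DDX46, the helicase that acts on the U2 snRNP as it joins the branch site, had 249.3 with SB590885 and 390.5 with vehicle, 1.57-fold lower. TRA2B, an SR-like activator of alternative exons, had 1288.6 with SB590885 and 2001.2 with vehicle, 1.55-fold lower. RBM17, DDX46 and TRA2B were thus lower by more than any member of the prefix families was by its brightest probe. The dimmer probe of HNRNPA1, at -0.87, was lower still. RBM17, DDX46 and TRA2B had 1 detected probe each, so no other probe checks them.

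The counts by list stand beside 50.1% lower over all detected genes. By list, the genes of early acceptor-site recognition were lower in 8 of 8 (median -0.12), from RBM17 to ZRSR2 at -0.03. Of these, PHF5A, CHERP and SF1 were also close to level, at -0.08, -0.08 and -0.05. The SR protein kinases and their partners were lower in 7 of 7 (median -0.10), from DYRK1A at -0.34 (278.3 with SB590885, 351.3 with vehicle) to CLK3 at -0.06. SRPK1, the cytoplasmic kinase of SR proteins, had 736.4 with SB590885 and 903.4 with vehicle (-0.29). CLK1, SRPK2 and PPIG were lower by little, at -0.10, -0.08 and -0.07. Genes of the Prp19 complex and the B complex were lower in 15 of 20 (median -0.10). They ran from ISY1 at -0.53 (391.4 with SB590885, 566.0 with vehicle) to AQR at 0.14. PRPF19 itself, at 0.56, was counted with the PRPF genes and is not in this list. Alternative splicing regulators were divided, with 16 of 31 lower (median -0.06), from RBM17 to MBNL3 (194.6 with SB590885, 145.8 with vehicle; 0.42). Helicases had 5 of 13 lower (median 0.03), from DDX46 to DDX42 at 0.23, and second-step factors 4 of 7 (median -0.04), from CWC27 at -0.35 to SLU7 at 0.29. LSm proteins had 6 of 12 lower (median 0.02), from LSM14A at -0.26 to LSM1 at 0.27, and the exon junction complex with its decay partners 7 of 10 (median -0.04), from SAP18 at -0.40 to UPF2 at 0.22. Some genes stand in more than 1 list.

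**Figure D5:**
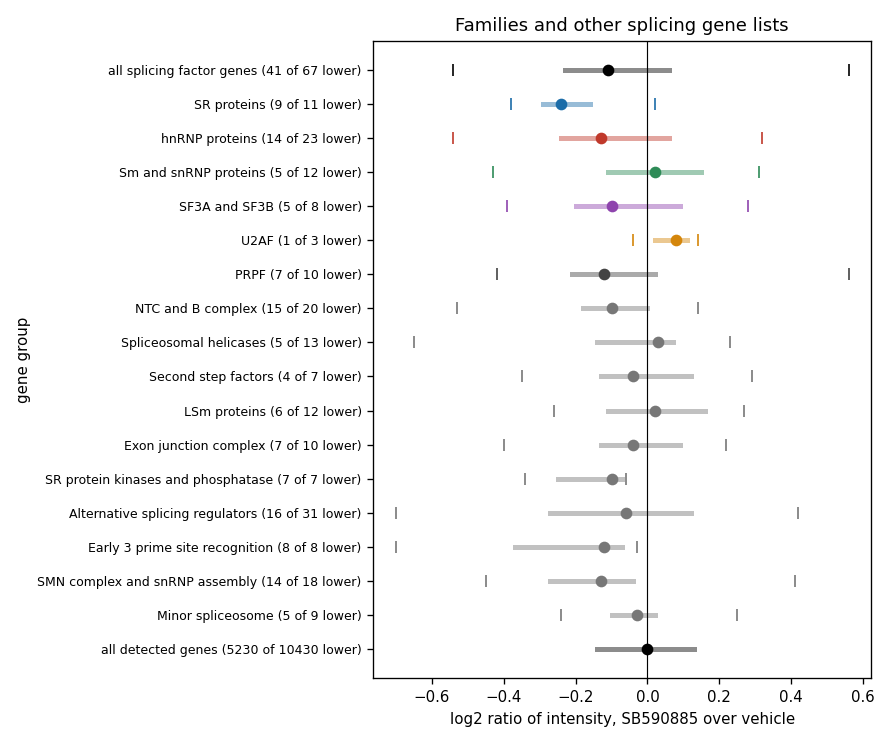
Median log2 ratio (point), range between the quartiles of the genes (bar) and lowest and highest gene (ticks, not drawn for all detected genes) for the 6 families, the 10 other splicing lists and all detected genes, SB590885 over vehicle. The SR proteins have the lowest median (-0.24), and the bar of all detected genes is centred on 0.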

How the data were processed

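The authors deposited intensities on a linear scale for 47318 probes on 2 arrays, 1 per condition, with a detection p-value per probe and array, per the file headers. No label or header names the array software or the normalization. After sorting, the largest gap between the arrays was 0.129 intensity units, the form quantile normalization leaves, and background was left in (lowest value 90.7), which compresses ratios of dim genes. The deposited table called non-normalized holds the same intensities times 1.025, and the series matrix the same values, so no raw signal was used.

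Probes were named through platform annotation (30111 probes with 1 gene, 8 with several, left unnamed, the rest unlisted), and symbols were updated by Entrez identifier with RefSeq for 30072 probes. A gene took its brightest detected probe (detection p under 0.01 on either array). The sums of cell type markers instead took each gene's probe that was brightest with SB590885. Ratios are log2 SB590885 over vehicle of the deposited intensities. A gene detected on 1 array was set at its bound for counts past a fold. As the arrays number 1 per condition, sizes were described by a rule of 1.5-fold and a smaller one of 25% higher or 20% lower, with no test. The alternatives were limma 3.58.1 (R 4.3.3) neqc with an offset of 16, median centring, other detection filters, the mean over probes and other folds. Named were members past the smaller rule, the 3 highest and 3 lowest per larger family, every member of smaller ones, genes with a probe of opposite sign past it, those nearest the detection limit, and the extremes of each other list with those past 1.5-fold. Other names were chosen after their values were seen. The members and lists were chosen with earlier results of these data known, and the promoter motifs after the files were read.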

Additional observations from a re-analysis of the deposited data

How the results depend on the processing

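The median over the splicing factor genes and the share that were lower kept their direction under 8 alternatives, with 41 to 45 genes lower. Another 2, current symbols and the series matrix, left every member's value identical and test nothing. The SR proteins had 9 or 10 genes lower throughout. Background correction with neqc, with quantile normalization or with median centring, brought 1 gene past 1.5-fold higher (PRPF19) and 2 past it lower (HNRNPH3 and PRPF38A), against 0 and 0 as deposited. The rule of 25% higher or 20% lower gave 1 and 7. With median centring the PRPF median was -0.17. With the mean over all detected probes the hnRNP median was -0.06, against -0.13, and the U2AF median 0. With neqc the medians of the SR kinase list and of the SMN and snRNP assembly list were -0.17 and -0.19. The cause was not tested. These corrected values start from intensities that were already normalized. Without those 2, of 95 comparisons 84 stayed within their limits, 11 moved and none changed sign. Some of the 84 could not have moved, so the tally overstates how much was tried. With no gene past 1.5-fold, none could pass 2-fold. Medians of families detected wholly on both arrays could not change under that filter. Among the family medians, adding SNRNP genes could change only that of the Sm and snRNP proteins. Added after seeing the data were counting SNRNP genes as members (45 of 74 lower) and the background-corrected count over the other splicing lists (10 lower and 1 higher by 1.5-fold, against 3 and 0 as deposited). No paired analysis was possible because each condition has 1 array. Genes near the lowest detected intensity (129.8 with SB590885, 132.2 with vehicle) have ratios set largely by background.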

Other observations

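Genes that assemble snRNPs in the cytoplasm and return them to the nucleus were mostly lower with SB590885. Of 18 detected genes of the SMN complex and its partners 14 were lower, with a median log2 ratio of -0.13 (-0.19 with background correction), where 50.1% of all detected genes were lower. GEMIN2, which binds the Sm ring during assembly, had 605.9 with SB590885 and 826.2 with vehicle (-0.45). GEMIN5, which recognises the snRNA, had 268.3 with SB590885 and 355.0 with vehicle (-0.40), and WDR77, the partner of the methyltransferase PRMT5, had 338.4 with SB590885 and 438.0 with vehicle (-0.37). PRMT5 itself was at 0.09, and GEMIN6 was highest, at 787.9 with SB590885 and 591.3 with vehicle (0.41). SMN1 and SMN2 are near-identical copies whose probes may share signal, and they had -0.24 and -0.12.

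Genes of the minor spliceosome, which removes the rare U12-type introns, were close to level, with 5 of 9 lower and a median of -0.03. ZCRB1 was lowest at 147.4 with SB590885 and 173.5 with vehicle (-0.24), and PDCD7 highest at 7693.8 with SB590885 and 6470.8 with vehicle (0.25).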
